A study of Mus musculus with 6 samples.

Results

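Potassium channel subunits were compared between the left and the right entorhinal cortex, the gateway between the hippocampus and the rest of the cortex. They were the rows of the authors' deposited table of all genes whose symbol is Kcn, then 1 to 3 letters for the subfamily and a number. The symbol rule took 83 rows, and the choroid plexus channel gene Kcnj13 and the long noncoding RNA gene Kcnq1ot1 were left out of them by rule, which left 81 rows of 75 genes out of 20414 rows of 18746 genes. The rule works on symbols alone, but it was set with earlier results of these data known. RNA came from the dissected left or right entorhinal cortex of untreated wild-type C57BL/6 mice aged 6 months and was run on Affymetrix Mouse Gene 2.0 ST arrays, 3 for each side and 6 in all. The labels call the samples biological replicates but do not say whether both sides of one mouse were used, whether animals were pooled, or which sex they were. All samples share genotype, strain and age, and the side is the only difference that the labels give.

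Potassium channels let potassium leave or enter the cell and so set the resting potential, end the action potential and limit how often a neuron fires. Voltage-gated channels open on depolarisation, inward rectifiers and two-pore channels pass current near rest, and calcium-activated channels couple the potassium current to calcium entry. Pore-forming subunits assemble into channels together with auxiliary subunits that alter their gating or transport. In the entorhinal cortex such currents are known for shaping the firing of the principal cells that project to the hippocampus, and glial inward rectifiers take up potassium released by active neurons.

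For each named row the authors' deposited table holds 1 signed fold and 1 p-value and no value per array. The per-array values were deposited in another table, whose row numbers are paired with genes by no source used here. The level of a channel gene, its value in each array and its SD are therefore not given below, and the tissue label could not be checked against the levels of its marker genes. A positive fold was taken to mean more RNA in the left cortex, a reading that is likely but not stated: the title line of the table names left before right, and in both tables the largest difference had the same sign, at a log2 value of -2.48 in each. A fold is the ratio between sides as the authors computed it. The deposited p-values come from a test that no source used here names, so the spread they rest on is not known. A p printed beside a fold below is the deposited p unless another is named. In the per-array table, the median 95% interval of the difference among unnamed rows with a mean signal above the median reached 0.139 on the log2 scale to either side (limma). Differences below about 1.1-fold thus lie within the error of a typical row of such signal. Over all unnamed rows the median interval reached 0.18 to either side, or 1.133-fold. Which of these errors holds for a channel row is not known, because its signal is not given.

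Most channel rows differed little between the sides. The authors' deposited table put 69 of the 81 channel rows within 1.1-fold (85.2%, against 85.8% of all rows), and gave 9 a deposited p under 0.05 (11.1%, against 8.13% of all rows). Of these, 8 were higher on the left, where the share of all rows was 3.81%, and 1 was higher on the right, where it was 4.33%. Against protein-coding rows alone, the authors' deposited table gives shares of 7.48% in either direction, 3.64% to the left and 3.84% to the right. At a deposited p under 0.01 there was 1 channel row, Kcne1l (1.23% of channel rows, against 1.66% of all rows). After Benjamini-Hochberg adjustment of the deposited p-values over all 20414 rows, 0 channel rows passed at 0.05 and 0 rows of the whole table did, and the smallest adjusted p of a channel was 0.567. None of the channels was among the 6 genes of the authors' cut-off table.

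Without regard to p, 57 of the 81 channel rows were higher on the left by the authors' deposited table (70.4%, against 54.1% of all rows and 54.4% of protein-coding rows), and 24 were higher on the right. Their median log2 fold was 0.03 on the left-over-right scale, beside 0.01 over all rows. Pore-forming subunits had 48 of 66 rows higher on the left and a median log2 fold of 0.03 by the authors' deposited table. Auxiliary subunits, those of calcium-activated channels included, had 9 of 15 and 0.02, and they held both of the largest folds to the right.

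**Figure D1:**
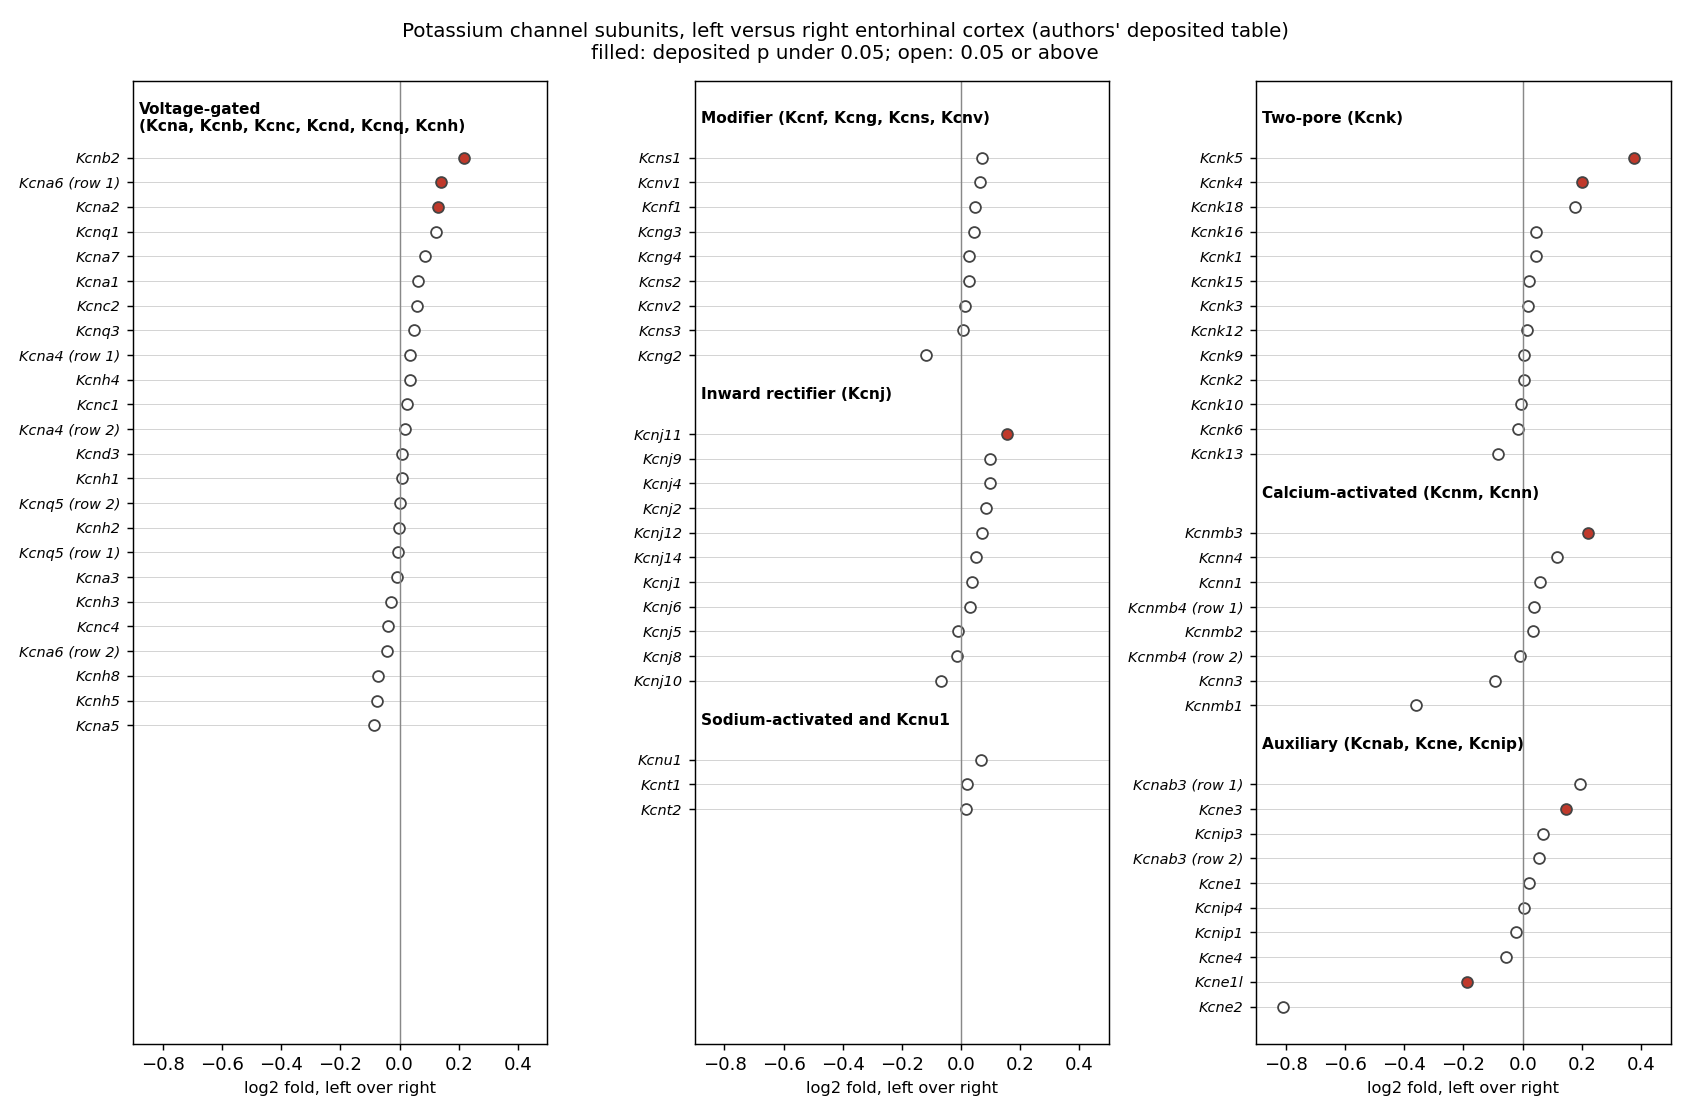
Each point is 1 row of the authors' deposited table (rows of genes not reported here are not drawn), placed by its log2 fold of left over right (horizontal axis) within its channel family. Filled points have a deposited p under 0.05, open points do not. The 8 filled points to the right of 0 are higher in the left cortex, Kcne1l is the only filled point on the other side, and Kcne2 lies farthest out at -0.81.

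Among the 81 channel rows, the largest difference to the left belonged to Kcnk5, which encodes a two-pore channel opened by alkaline pH. The largest to the right belonged to Kcne2, a small auxiliary subunit made by the choroid plexus among other tissues. Kcnk5 was 1.30-fold higher in the left cortex by the authors' deposited table (p = 0.0163), where 38 of all rows had a larger fold to the left. Kcne2 was 1.75-fold higher in the right cortex by the authors' deposited table (p = 0.0584), where 16 rows had a larger fold to the right. The windows of 300 bases around their RefSeq transcription starts (GRCm38.p6, 250 bases before to 50 after) are shown because these genes bound the range of the family. Capitals mark the dinucleotide CG, which reads the same on both strands. The Kcnk5 window is chr14:20181733-20182032 on the minus strand, and the Kcne2 windows are chr16:92292139-92292438 and chr16:92295366-92295665 on the plus strand.
Kcnk5: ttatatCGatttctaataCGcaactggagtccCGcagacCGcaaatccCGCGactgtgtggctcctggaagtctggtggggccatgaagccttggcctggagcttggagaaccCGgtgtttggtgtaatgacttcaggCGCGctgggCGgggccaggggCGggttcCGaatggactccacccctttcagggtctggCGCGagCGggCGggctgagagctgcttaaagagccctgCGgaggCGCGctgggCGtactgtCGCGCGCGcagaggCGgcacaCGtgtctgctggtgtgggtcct
Kcne2, the first start: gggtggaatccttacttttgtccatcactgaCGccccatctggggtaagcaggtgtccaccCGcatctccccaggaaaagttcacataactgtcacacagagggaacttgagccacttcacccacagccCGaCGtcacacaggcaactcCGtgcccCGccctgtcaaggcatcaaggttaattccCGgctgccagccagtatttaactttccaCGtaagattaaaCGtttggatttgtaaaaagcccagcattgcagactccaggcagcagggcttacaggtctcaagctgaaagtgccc
Kcne2, the second start: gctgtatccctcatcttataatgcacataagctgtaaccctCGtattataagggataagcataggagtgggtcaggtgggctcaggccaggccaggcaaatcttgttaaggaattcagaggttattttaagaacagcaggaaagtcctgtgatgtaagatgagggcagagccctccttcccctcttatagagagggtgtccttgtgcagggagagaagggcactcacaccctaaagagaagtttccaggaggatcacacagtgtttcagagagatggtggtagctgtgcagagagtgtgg
The Kcnk5 window held 26 CG, a number that 16.9% of the 32851 windows in the RefSeq table reach. The Kcne2 windows held 9 and 1, numbers reached by 45.8% and 94.6% of windows. Windows were found for 55 of the 75 channel genes, and their 73 windows had a median of 9 CG, beside 7 over all windows. The sequences describe the genes, and the arrays carry no measurement on them.

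The voltage-gated family comprised 27 rows of 23 genes. By the authors' deposited table, 17 rows were higher on the left (63%, against 54.1% of all rows), with a median log2 fold of 0.02. A deposited p under 0.05 was given to 3 rows (11.1%, against 8.13% of all rows). Kcnb2, which forms a slow delayed rectifier of neuronal cell bodies and dendrites, was 1.16-fold higher in the left cortex by the authors' deposited table (p = 0.0285). Kcna2, an axonal channel that opens at low voltage, was 1.09-fold higher in the left cortex by the authors' deposited table (p = 0.0475). Its axonal partner Kcna1 was 1.04-fold higher in the left cortex (p = 0.233) by the authors' deposited table. Of these 3 genes, Kcna1 lay well within the error of a typical row given above. Kcna2, at a log2 fold of 0.13, lay within it too, though the error of its own row is not known. Another 10 rows of the family were higher on the right, those of Kcna3 and Kcna5 among them.

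Kcna6, another subunit of the same subfamily, had 2 rows that disagreed. By the authors' deposited table, 1 row was 1.102-fold higher in the left cortex (p = 0.0394) and the other 1.03-fold higher in the right cortex (p = 0.48). The mean of both rows, taken over log2 folds and over signed z, gave a 1.03-fold difference to the left with a p of 0.498, so the count for Kcna6 rests on 1 of its rows. The rows of Kcna4, an inactivating A-type channel, were 1.02-fold and 1.01-fold higher in the left cortex by the authors' deposited table (p = 0.632 and 0.721). Kcna3 was at 1.005-fold toward the right (p = 0.885), and Kcna5 was 1.06-fold higher in the right cortex (p = 0.31), by the authors' deposited table. Kcna7 was 1.06-fold higher in the left cortex by the authors' deposited table (p = 0.178).

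Channels for fast spiking and for the A-type current showed folds close to 1. Kcnc1 and Kcnc2, whose channels let interneurons fire at high rates, were 1.02-fold and 1.04-fold higher in the left cortex by the authors' deposited table (p = 0.522 and 0.266). Kcnc4 was 1.03-fold higher in the right cortex by the authors' deposited table (p = 0.357). Kcnd3, a pore of the A-type current in dendrites, was 1.01-fold higher in the left cortex by the authors' deposited table (p = 0.856).

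Of the Kcnq genes, whose neuronal members carry the M-current that muscarinic receptors close, Kcnq3 and Kcnq5 lay nearer parity than Kcnq1. Kcnq3 was 1.04-fold higher in the left cortex by the authors' deposited table (p = 0.429). The rows of Kcnq5 lay at 1.003-fold to the right and 1.0005-fold to the left by the authors' deposited table (p = 0.943 and 0.989). Kcnq1, best known from heart and epithelia, was 1.09-fold higher in the left cortex by the authors' deposited table (p = 0.129). The Kcnh genes, of the ether-a-go-go family, had 2 of 6 rows higher on the left by the authors' deposited table (33.3%, against 54.1% of all rows). Their median log2 fold was -0.02. Among them Kcnh2, the ERG channel, had the largest deposited p of the voltage-gated family (0.993, at 1.0004-fold), and Kcnh1 was likewise near parity at 1.01-fold to the left (p = 0.918) by the authors' deposited table. Kcnh8, Kcnh5 and Kcnh3 were 1.05-fold, 1.05-fold and 1.02-fold higher in the right cortex by the authors' deposited table, with deposited p-values of 0.331, 0.766 and 0.578, and Kcnh4 was 1.02-fold higher in the left cortex (p = 0.691).

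The modifier subunits do not form channels alone but join Kcnb subunits and alter their gating. Of their 9 rows 8 were higher on the left by the authors' deposited table (88.9%, against 54.1% of all rows). Their median log2 fold was 0.03, beside 0.01 over all rows, and 0 had a deposited p under 0.05. Kcns1 had the smallest p at 1.05-fold to the left (p = 0.129), and Kcng2 the largest fold at 1.09 to the right (p = 0.218), by the authors' deposited table. Kcnf1 was 1.03-fold (p = 0.27), Kcng3 1.03-fold (p = 0.416) and Kcnv1 1.05-fold higher in the left cortex (p = 0.501) by the authors' deposited table. Kcns2 was 1.02-fold (p = 0.613) and Kcns3, an interneuron-enriched subunit, 1.004-fold toward the left (p = 0.924) by the authors' deposited table. Kcng4 was 1.02-fold and Kcnv2 1.01-fold higher in the left cortex by the authors' deposited table (p = 0.693 and 0.829). All modifier rows but that of Kcng2 had the sign of Kcnb2, and all 9 lay within 1.1-fold without passing any threshold. A link between the modifiers and Kcnb2 was not tested.

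Inward rectifiers had 8 of 11 rows higher on the left by the authors' deposited table (72.7%, against 54.1% of all rows). Their median log2 fold was the highest of the families with over 3 rows (0.05). Kcnj11, the pore of the ATP-sensitive channel that links excitability to energy state, was 1.11-fold higher in the left cortex by the authors' deposited table (p = 0.0483). Abcc8, the sulfonylurea receptor that completes this channel in neurons, was 1.13-fold higher in the left cortex by the authors' deposited table (p = 0.0519). The vascular form of the channel, with the pore Kcnj8 and the receptor Abcc9, was at 1.01-fold to the right for each gene by the authors' deposited table (p = 0.839 and 0.746). Both genes of the neuronal channel thus had folds above 1.1, but within the 1.133-fold error of a typical row among all rows. The error of their own rows is not known. The genes of the vascular form were near parity, and the difference between these pairs was not tested.

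The G protein-gated rectifiers, which carry the slow inhibition evoked by GABA-B and other receptors, gave mixed values. Kcnj9 was 1.07-fold higher in the left cortex (p = 0.0915) and Kcnj6 1.02-fold (p = 0.594) by the authors' deposited table. Kcnj5 was 1.01-fold higher in the right cortex by the authors' deposited table (p = 0.872), and Kcnj3 was not analysed here. The strong rectifiers that hold the resting potential all stood above 1 on the left by the authors' deposited table, Kcnj4 at 1.07-fold (p = 0.119), Kcnj12 at 1.05-fold (p = 0.126), Kcnj2 at 1.06-fold (p = 0.245) and Kcnj14 at 1.04-fold (p = 0.365). Kcnj10, the astrocyte channel that takes up potassium, was 1.05-fold higher in the right cortex by the authors' deposited table (p = 0.205). Kcnj1, a renal channel, was 1.03-fold higher in the left cortex by the authors' deposited table (p = 0.719).

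Two-pore channels carry the background leak current of resting cells. By the authors' deposited table, 10 of their 13 rows were higher on the left (76.9%, against 54.1% of all rows), with a median log2 fold of 0.02. A deposited p under 0.05 was given to 2 rows (15.4%, against 8.13% of all rows). Apart from Kcnk5, this was Kcnk4, which encodes the mechanosensitive channel TRAAK and was 1.15-fold higher in the left cortex by the authors' deposited table (p = 0.0104). Its relatives Kcnk2 and Kcnk10, the TREK channels, were at 1.003-fold to the left and 1.005-fold to the right by the authors' deposited table (p = 0.948 and 0.892). Kcnk18, a channel of sensory neurons regulated by calcineurin, was 1.13-fold higher in the left cortex by the authors' deposited table (p = 0.0797). The acid-sensitive channels Kcnk3 and Kcnk9 were at 1.01-fold and 1.003-fold to the left by the authors' deposited table (p = 0.682 and 0.941). Kcnk1 was 1.03-fold higher in the left cortex (p = 0.342) and Kcnk13 1.06-fold higher in the right cortex (p = 0.38) by the authors' deposited table, and Kcnk16, the gene next to Kcnk5, was 1.03-fold higher in the left cortex (p = 0.455). Kcnk15 and Kcnk12 were 1.02-fold and 1.01-fold higher in the left cortex by the authors' deposited table (p = 0.544 and 0.81), and Kcnk6 1.01-fold higher in the right (p = 0.806). The largest folds of the family were those of Kcnk5, Kcnk4 and Kcnk18.

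Calcium-activated channels, which shape the afterhyperpolarisation, had 5 of 8 rows higher on the left by the authors' deposited table (62.5%, against 54.1% of all rows). Their median log2 fold was 0.04. The pore gene of the large-conductance channel, Kcnma1, was not analysed here, but its beta subunits were measured. Kcnmb3 was 1.17-fold higher in the left cortex by the authors' deposited table (p = 0.0291). Kcnmb1, the beta subunit of smooth muscle, was 1.28-fold higher in the right cortex by the authors' deposited table (p = 0.0534). Kcnmb4, the main neuronal beta subunit, was 1.03-fold higher in the left cortex in 1 row and 1.01-fold higher in the right cortex in the other by the authors' deposited table (p = 0.415 and 0.848). Kcnmb2 was 1.02-fold higher in the left cortex by the authors' deposited table (p = 0.707). Among the small-conductance channels Kcnn3 was 1.07-fold higher in the right cortex (p = 0.0739) and Kcnn1 1.04-fold higher in the left cortex (p = 0.213) by the authors' deposited table. Kcnn4, the intermediate-conductance channel known from blood cells and epithelia, was 1.08-fold higher in the left cortex by the authors' deposited table (p = 0.133). The sodium-activated channels Kcnt1 and Kcnt2 were both at 1.01-fold to the left (p = 0.642 and 0.821), and the sperm channel gene Kcnu1 at 1.05-fold (p = 0.424), by the authors' deposited table.

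The remaining auxiliary subunits, of the Kcnab, Kcne and Kcnip subfamilies, had the widest range of the groups by the authors' deposited table, with log2 folds from -0.81 to 0.19 over 10 rows. That width rested on Kcne2 alone. The next lowest row, Kcne1l, was at -0.19, and calcium-activated rows ran from -0.36 to 0.22. Kcne1l, the X-linked gene of a KCNE subunit, had the smallest deposited p of all channel rows, at 1.14-fold higher in the right cortex by the authors' deposited table (p = 0.00898, adjusted p = 0.567 by Benjamini-Hochberg over all rows). Kcne3, whose protein keeps KCNQ1 channels open in epithelia, was 1.11-fold higher in the left cortex by the authors' deposited table (p = 0.0112). Kcne4 was 1.04-fold higher in the right cortex (p = 0.487) and Kcne1 1.01-fold higher in the left cortex (p = 0.666) by the authors' deposited table. The 2 rows of Kcnab3, a beta subunit of Kcna channels, were 1.14-fold and 1.04-fold higher in the left cortex by the authors' deposited table (p = 0.118 and 0.726). Of the Kcnip genes, calcium-binding partners of Kcnd channels, Kcnip3 was 1.05-fold higher in the left cortex (p = 0.129), Kcnip4 at 1.003-fold to the left (p = 0.909) and Kcnip1 1.02-fold higher in the right cortex (p = 0.546) by the authors' deposited table.

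**Figure D2:**
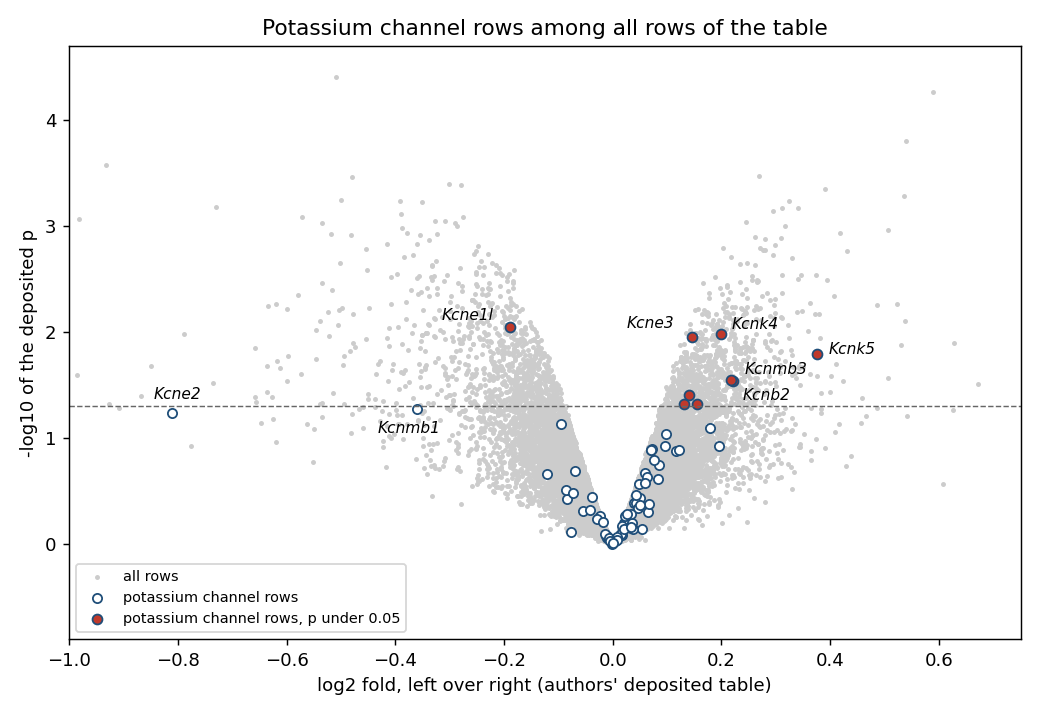
Grey points are rows of the authors' deposited table and circles are the potassium channel rows, filled where the deposited p is under 0.05 (dashed line). The horizontal axis is the log2 fold of left over right, the vertical axis is -log10 of the deposited p, and the 9 rows below -1, among them the left-out Kcnj13 and none of the 81 channel rows, are beyond the axis. Kcne2 and Kcnmb1 lie far to the left of the other channels and just under the dashed line.

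Markers of other cell types were set beside several of these values. For comparison, 54.1% of all rows were higher on the left and 8.13% had a deposited p under 0.05. By the authors' deposited table, 8 of the 9 measured choroid plexus markers other than Kcne2 had more RNA in the right cortex (median log2 fold -1.01, range -2.48 to 0.03), and 7 of them had a deposited p under 0.05. Their part in the value of Kcne2 was not tested. The mural cell markers that had a row, 4 of 8 listed, were all higher on the right like the smooth muscle subunit Kcnmb1, but by less, with a median log2 fold of -0.08 and no deposited p under 0.05 in the authors' deposited table. Astrocyte markers, which belong to the cells that make Kcnj10, were higher on the right in 6 of 7 rows of the authors' deposited table, with a median log2 fold of -0.07 beside -0.07 for Kcnj10 itself. The part of mural and astrocyte genes in these values was not tested.

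The neuronal marker lists differed in direction. Of all rows, 54.1% were higher on the left and 8.13% had a deposited p under 0.05. Entorhinal and pyramidal neuron markers were higher on the left in 9 of 12 rows of the authors' deposited table. The rows of Slc17a6 and Etv1 went the other way. The median log2 fold of this list was 0.06, and 2 rows, those of Lamp5 and Tbr1, had a deposited p under 0.05. Interneuron markers, with rows for 7 of 10 listed genes, were higher on the right in 7 of 8 rows, all but that of Vip. Their median log2 fold was -0.08 by the authors' deposited table, and 2 rows had a deposited p under 0.05. The striatal list had rows for 6 of 10 genes, all higher on the right (median -0.19, 4 rows with a deposited p under 0.05). Oligodendrocyte markers had a median of -0.03 over 6 rows and meningeal markers 0.15 over 6 rows, 4 of them higher on the left, by the authors' deposited table. The lists that leaned left, as the channel rows did, thus included the meningeal as well as the principal neuron markers. Whether these cell types have a part in the channel differences was not tested, and in dissected tissue fewer cells of a type and less RNA per cell cannot be told apart.

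**Figure D3:**
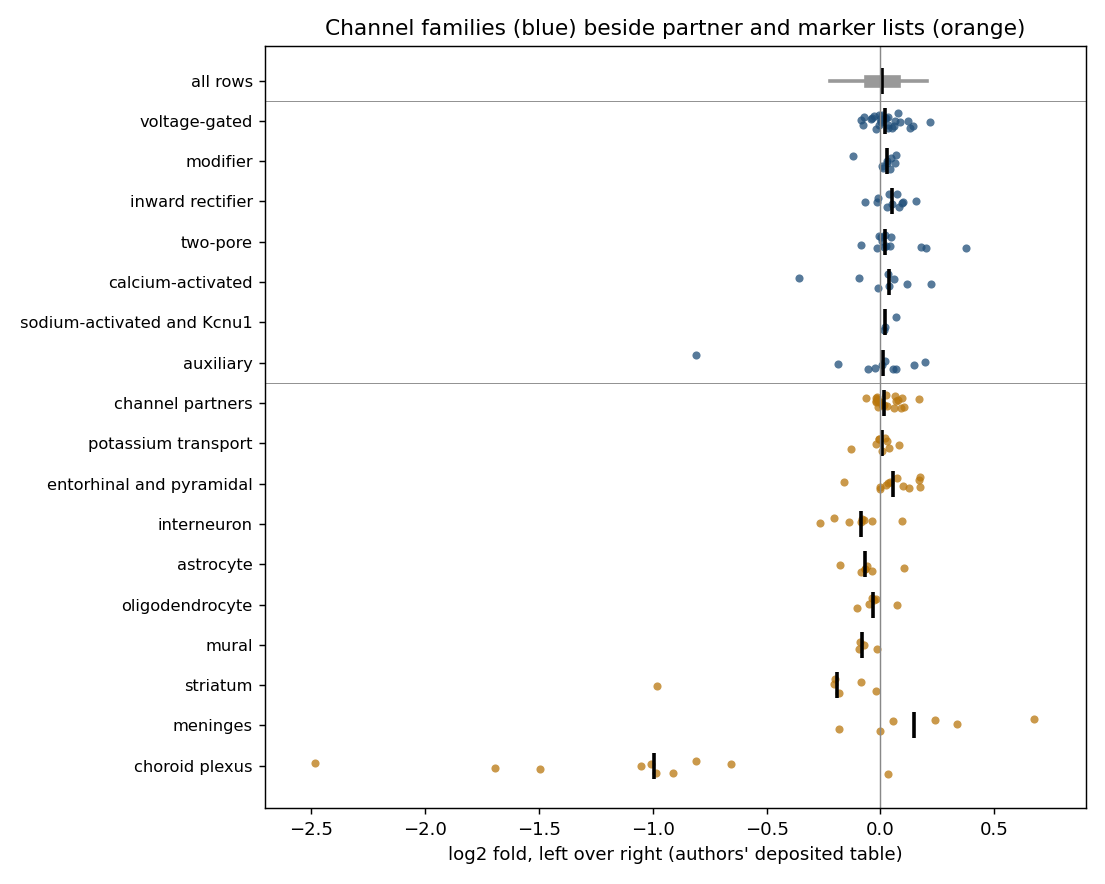
Points are rows of the authors' deposited table, placed by their log2 fold of left over right (horizontal axis), for the channel families (blue) and the lists of partners, transporters and cell type markers (orange). Black ticks are medians, and the grey bar shows the middle 50% (thick) and 95% (thin) of all rows. The family medians lie between 0.01 and 0.05, whereas the choroid plexus list has a median of -0.996 with Kcne2 included.

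Proteins that anchor or modulate these channels were counted as a list of their own. Of 28 listed partners 19 had rows in the authors' deposited table, and 12 of 21 rows were higher on the left (57.1%, against 54.1% of all rows). Their median log2 fold was 0.02, and 0 rows had a deposited p under 0.05 (against 8.13% of all rows). After Abcc8 the smallest p-values were those of Rgs7, a regulator of G protein signalling to inward rectifiers, at 1.07-fold to the left (p = 0.0645), and of Lrrc55, a gamma subunit of the large-conductance channel, at 1.07-fold and 1.05-fold to the left in its 2 rows (p = 0.0772 and 0.4), by the authors' deposited table. Cntn2, which clusters Kcna channels along axons, was 1.06-fold higher in the left cortex (p = 0.109) and Kctd16, an auxiliary subunit of GABA-B receptors, 1.05-fold (p = 0.196) by the authors' deposited table. The clustering partner Cntnap2 was at 1.01-fold to the right by the authors' deposited table (p = 0.814), and so was Amigo1, a partner of Kcnb channels (p = 0.673). Dpp10, a partner of Kcnd channels, was 1.05-fold higher in the left cortex by the authors' deposited table (p = 0.268).

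The pumps and cotransporters that maintain the potassium gradient had 5 of 9 genes higher on the left by the authors' deposited table (55.6%, against 54.1% of all rows). Their median log2 fold was 0.01, and 0 genes had a deposited p under 0.05 (against 8.13% of all rows). The largest difference was that of Slc12a2, the sodium-potassium-chloride cotransporter, 1.09-fold higher in the right cortex by the authors' deposited table (p = 0.0763), a gene that the choroid plexus also expresses. The sodium pump subunit Atp1b1 was 1.03-fold higher in the left cortex (p = 0.366), Slc12a5, the neuronal potassium-chloride cotransporter, 1.02-fold (p = 0.541), and the pump subunit Atp1b2 1.02-fold higher in the right cortex (p = 0.575), by the authors' deposited table.

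Some channel genes are neighbours in the genome, and these did not all share a direction. Kcna5, Kcna1 and Kcna6 follow each other on chromosome 6, with signed folds of -1.06, 1.04 and 1.102 (the row of Kcna6 with the smaller p) by the authors' deposited table, a negative fold being higher on the right. On chromosome 3 Kcna3 and Kcna2 are neighbours, with signed folds of -1.005 and 1.09 by the authors' deposited table. Kcnj9 and Kcnj10 lie side by side on chromosome 1 at 1.07 and -1.05, and Kcnip1 and Kcnmb1 on chromosome 11 at -1.02 and -1.28 by the authors' deposited table. Neighbourhood was taken from the order of protein-coding genes in GRCm38.p6.

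In the per-array table the same contrast gave 0 of 41345 unnamed rows at an adjusted limma p under 0.05 (smallest 0.516) and 3023 rows (7.31%) at an unadjusted limma p under 0.05, 1255 with more signal on the left and 1768 with more on the right. More of these rows lay on the right in every alternative limma fit run except leaving out right replicate 2, which gave 1952 on the left and 1877 on the right. The split was 572 and 1236 among the rows above the median signal. When eBayes was run robustly with a trend on intensity, it was 1167 and 2072. The arrays had median log2 signals of 7.24 to 7.28 and correlated at 0.9946 to 0.9965 across rows. Their number limits the precision.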

How the data were processed

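Total RNA was measured on Affymetrix arrays, per the labels' protocols. The authors deposited 1 p-value and 1 signed fold for each row of a gene table (minus the reciprocal ratio where below 1), per the file headers, and a table of per-array signals whose log2 scale was inferred from its values. Ingenuity iReport was used, per the series description; the sources used here name neither the test nor the summarization and normalization. Log2 folds of left over right were computed from the signed folds, and the deposited p-values were adjusted by Benjamini-Hochberg over the whole table (threshold 0.05). Several rows of 1 gene were kept apart. Per-array values were tested with limma 3.58.1 in R 4.3.3 (lmFit, eBayes, two-sided), which was tested on simulated data. Groups came from sample titles. Deviations of same-numbered arrays correlated at 0.154, 0.00559 and 0.133, not all above 0.1. Those of differently numbered arrays correlated at -0.154 to 0.0222. With 3 arrays for each side these values cannot decide whether equal numbers share a mouse. The labels do not say so, and the numbers were therefore not taken as pairs.

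Channel genes and lists were chosen with earlier results of these data known. Named genes were those with a deposited p under 0.05, up to 5 per family by smallest p, the largest p of each family and listed abundant forebrain channels, of which 39 of 49 had rows; some others are named for their subfamily, chosen after their values were seen. Of the 97 reference genes that match the symbol rule, 20 had no row, and these are not analysed here. Some genes that the rule names are not reported here, though counts and medians include them. Sequences are from RefSeq (GRCm38.p6). Figures used matplotlib 3.10.9.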

Additional observations from a re-analysis of the deposited data

How the results depend on the processing

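Of the channel rows, 9 of 81 had a deposited p under 0.05 (11.1%, against 8.13% of all rows). The count was 1 (Kcne1l) at a deposited p under 0.01, where 1.66% of all rows passed. At 0.05 it was 5 of 44 rows (11.4%) when only the listed abundant forebrain channels were counted. It was 6 of 66 (9.09%) with pore-forming subunits alone and 8 of 75 (10.7%) with 1 value per gene. Kcna6 was lost with 1 value per gene (log2 fold 0.05, p from the mean z = 0.498). The counts at 0.01, of the listed abundant channels and of pore-forming subunits fall by construction, through a stricter threshold or fewer rows. Leaving out Kcne2, chosen after seeing the data, could not change the count of 9, because its deposited p was 0.0584. The median log2 fold was 0.02 to 0.03 under the mean, 1 value per gene, pore-forming subunits, centring on all rows and without Kcne2. No channel passed adjustment over rows or over genes (smallest adjusted p 0.567 and 0.597). Limma called 0 per-array rows at an adjusted p under 0.05 in every alternative run. Its count at an unadjusted p under 0.05 was 3023, 1808 (572 left, 1236 right) when limma was fitted to the 20672 brighter rows (fewer rows tested), 2104 to 3829 when 1 array was left out, and 2790 with the replicate block, which no source says pairs the samples; not every array correlated best with its own number. Limma on named channels, with its alternatives, was not run, because no table pairs the per-array rows with genes.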
